A study of Ovis aries with 12 samples.

Results

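Cortisol acts on a tissue through the receptors it binds and the enzymes that make or destroy it inside the cell, and 4 genes encode this set: NR3C1, NR3C2, HSD11B1 and HSD11B2. They were found on the sheep array by gene name or by sheep transcript, and they account for 7 of its 15008 probes and 4 of the 847 genes that could be named on it. All 7 probes passed the filter on dim probes, which asked for a signal well above background on at least 6 of the 12 arrays. The 2 HSD11B2 probes passed it with some dim arrays, which are described below.

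RNA came from biceps femoris, a hind-limb muscle, of near-term singleton sheep fetuses, with 1 array per sample. The labels number the arrays 1 to 6 in each group without naming the animals, so an array is taken here as 1 fetus, and p-values measure only the spread between these samples, which may be technical. The 6 cortisol fetuses came from ewes infused with cortisol (Solu-Cortef) at 1 mg/kg/day from about day 115 of pregnancy, and the 6 control fetuses from ewes given vehicle over the same time. Necropsy followed the onset of labour, at day 139 to 144, so labour had begun in both groups. All sample titles give the age as 140 days. No strain, breed or fetal sex is given in the labels. The labels speak of 7 ewes per arm, and their treatment text names the left ventricular free wall with 5 samples per group, against biceps femoris in the title and the tissue field. Of 16 skeletal-muscle markers 5 were measured, and the regulators MYOD1 and MYOG exceeded background clearly on all 12 arrays, as did the myosin heavy chains MYH1 and MYH2, while MYF5 reached that level on 5 controls and 3 cortisol arrays. In contrast, 0 of 13 heart-muscle markers are on the array by name, so the heart could not be checked directly.

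Control replicate 3 stood apart from the other arrays in MYH1 and MYH2. MYH1 read 0.50 and MYH2 0.79 on it, against 4.92 to 6.37 and 4.98 to 6.15 on the other arrays. The summed muscle signal, of which MYH1 made up a median of 50.1%, was 3.02 against 6.08 to 7.30. MYOD1 was at 1.83 and MYOG at 0.41 on control replicate 3, within the range of the other arrays. MYF5, at -3.40, was highest there. The lipoprotein lipase gene LPL was at 4.58 on it, with the other controls at 1.70 to 2.01. Without that array the differences between groups described below were 0.07 for NR3C1, -0.03 for NR3C2, 0.48 for HSD11B1 and -0.27 for HSD11B2, beside 0.10, -0.09, 0.47 and -0.19 with it. The receptor ratio was -0.10 without it and the enzyme ratio 0.75.

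The 75th percentile of spot intensity was 187 to 447 units per array, and 66.3% to 76.0% of probes were well above background. The comparison asks how raised cortisol in the ewe affects gene expression in the muscle of the fetus.

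NR3C1 is the glucocorticoid receptor, a nuclear receptor that is held in the cytoplasm by chaperones and moves to the nucleus when cortisol binds. NR3C2 is the mineralocorticoid receptor, which binds aldosterone and also cortisol with high affinity. HSD11B1 mainly turns inert cortisone back into cortisol in cells that supply NADPH, as in liver, fat and muscle, and HSD11B2 turns cortisol into cortisone, as in kidney and placenta, where it shields the mineralocorticoid receptor and the fetus.

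The probes decide which transcript each value stands for, so 1 stretch of each is shown, 5′ to 3′ as the array files give it. The NR3C1 probe is whole, at 60 bases. For the others 30 bases are printed: the first 30 for NR3C2 and HSD11B1, and the last 30 for HSD11B2.
NR3C1 probe 1: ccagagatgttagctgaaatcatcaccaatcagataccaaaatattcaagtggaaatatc
NR3C2 probe 1: ttaactatgccatgtcgtttctgggatcgt
NR3C2 probe 2: cttagaaacatgttcctgttcctctggata
HSD11B1 probe 1: atgtcgcattggctttaacttcagttcatt
HSD11B1 probe 2: ctgcgaaattgacagtatccatagatataa
HSD11B2 probe 1: gacactttttgAATAAAgataaatttttat
HSD11B2 probe 2: tgacactttttgAATAAAgataaattttta
The capitals mark AATAAA, the letters of the polyadenylation signal, which lie at base 42 of HSD11B2 probe 1 and base 43 of probe 2. On the printed strand 5.63% of all probes on the array hold these letters, and 9.14% hold them on either strand.

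Both HSD11B2 probes are nearly the same sequence, since they share 59 of 60 bases. The NR3C2 probes start 86 bases apart on their transcript and the HSD11B1 probes 122 bases apart, so these pairs are separate readings of 1 gene. Apart from the HSD11B2 pair, no member probe shared a run of 20 bases with any other probe of the array on either strand. NR3C2 carries an older locus name on the array and was identified by the array's description of its transcript, and HSD11B2 carries an older name and was matched through its RefSeq transcript. The files give no genome position for these probes, and levels are not compared between probes because each binds with its own strength.

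None of the 7 probes differed between cortisol and control arrays past an adjusted p of 0.05 in limma, and 0 of the 7 had an unadjusted p under 0.05. The same holds for the array as a whole: 0% of 10730 tested probes passed the adjusted threshold, the smallest adjusted p being 0.692, and 6.82% had an unadjusted p under 0.05. The groups overlapped for all 7 member probes, and 0.41% of tested probes had groups that did not overlap. Of the 4 genes, HSD11B1 had the largest difference between group means, and in that gene 1 cortisol fetus stood far above the others. All signals that follow are on a log2 scale relative to the array's own 75th percentile, and all differences are cortisol minus control with 95% intervals. Probe 1 is the brighter probe of a gene and stands for it unless probe 2 is named.

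**Figure D1:**
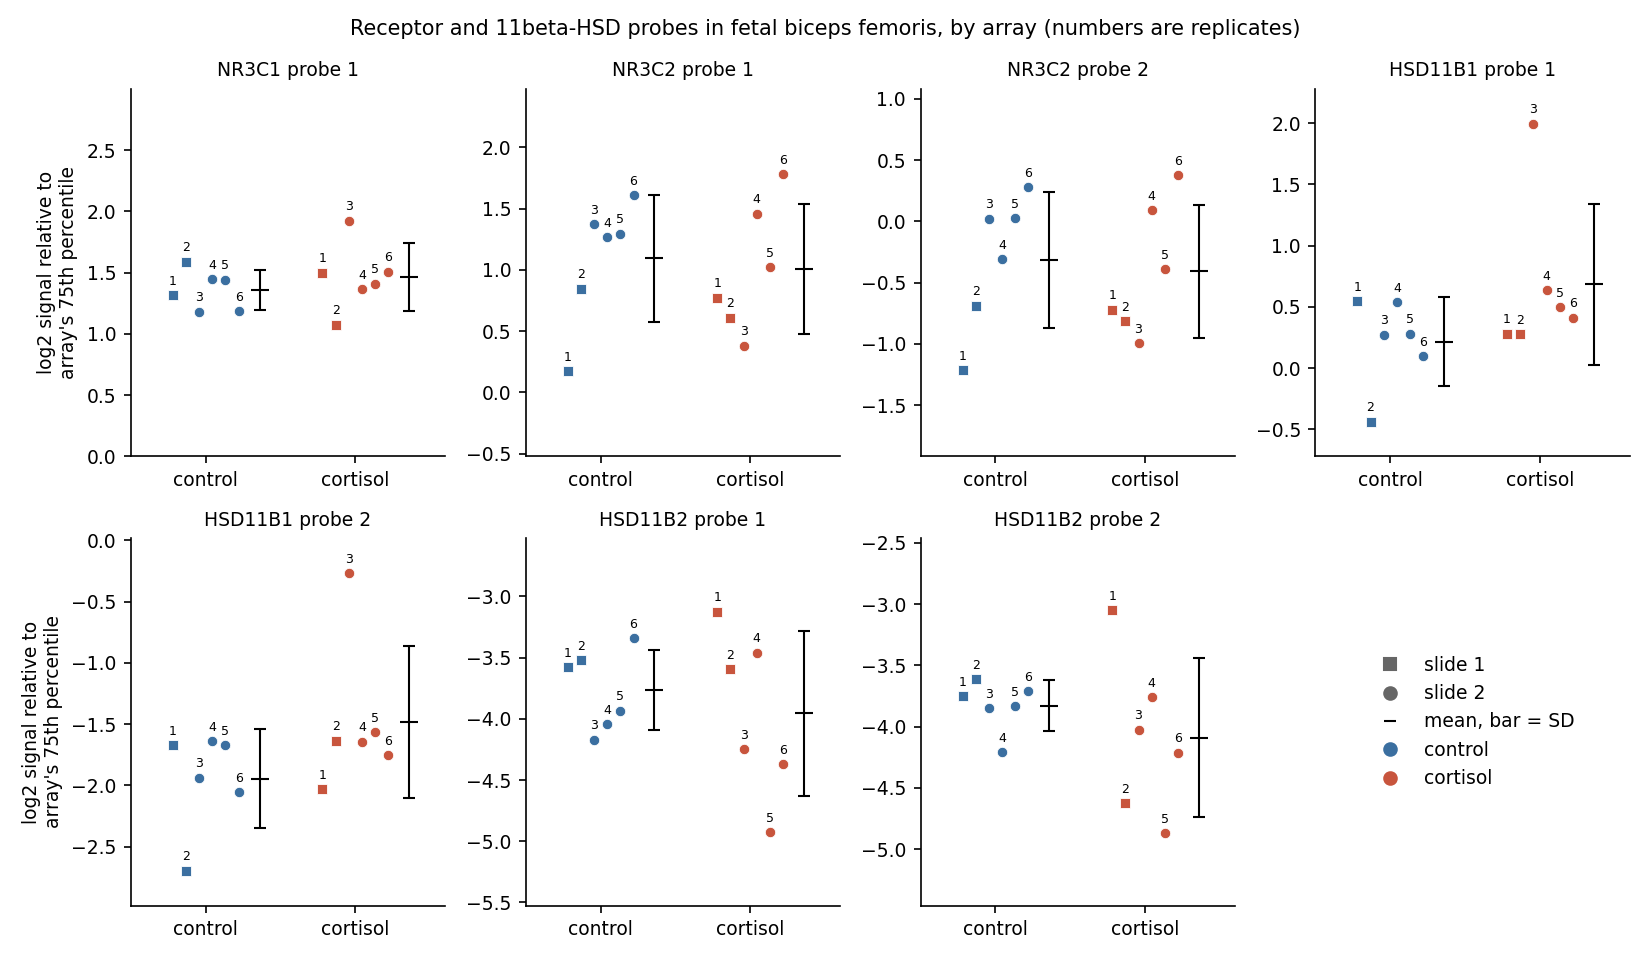
Log2 signal of each of the 7 probes, relative to the 75th percentile of its array, for 6 control (blue) and 6 cortisol (red) arrays, with squares for slide 1, circles for slide 2 and black marks for the group mean and SD. The groups overlap for every probe, and cortisol replicate 3 stands apart for both HSD11B1 probes, at 2.00 and -0.27.

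The glucocorticoid receptor was measured at much the same level in both groups. On control arrays 1 to 6, NR3C1 read 1.32, 1.59, 1.18, 1.45, 1.44 and 1.19. Cortisol arrays 1 to 6 gave 1.50, 1.07, 1.93, 1.36, 1.41 and 1.51. The groups overlapped, with 4 of 6 cortisol arrays inside the control range, 1 above it (replicate 3) and 1 below it (replicate 2).

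The means for NR3C1 were 1.36 ± 0.16 (SD, n = 6) and 1.46 ± 0.28 (SD, n = 6). The fitted difference was 0.10 on the log2 scale (SE 0.15, interval -0.22 to 0.43), with an adjusted p of 0.907 in limma. As a linear fold this is 1.07, with an interval of 0.86 to 1.35. A p above the threshold does not show that the groups were alike, since the interval runs from a small fall to a 1.35-fold rise. Cortisol replicate 3 carried the mean difference, since without it the log2 fold change was 0.0097. The spread of NR3C1 across fetuses was the smallest of the 4 genes.

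The mineralocorticoid receptor varied more between fetuses than between groups. NR3C2 probe 1 read 0.17, 0.85, 1.37, 1.27, 1.30 and 1.61 on control arrays 1 to 6. Its values on cortisol arrays 1 to 6 were 0.77, 0.61, 0.38, 1.46, 1.02 and 1.78. Control replicate 1 was the lowest array and cortisol replicate 6 the highest, and 5 of 6 cortisol arrays lay within the control range.

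Group means of NR3C2 were 1.09 ± 0.52 (SD, n = 6) and 1.01 ± 0.53 (SD, n = 6). They differed by -0.09 (interval -0.69 to 0.51), with an adjusted p of 0.958 in limma. Probe 2 gave a log2 fold change of -0.09 as well (interval -0.72 to 0.53). The sign of the NR3C2 difference was not stable: it was 0.04 without cortisol replicate 3 and 0.01 without control replicate 6. Both probes nonetheless ranked the fetuses in nearly the same order, with a Pearson r of 0.987 between them over the 12 arrays and an SD of 0.087 for their difference. The differences between fetuses in NR3C2 were thus far larger than the disagreement of its probes.

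NR3C2 was lower on slide 1 than on slide 2, a difference that did not pass after adjustment. Arrays on slide 1, which held 2 control and 2 cortisol arrays, averaged 0.60 ± 0.30 (SD, n = 4) for NR3C2, and arrays on slide 2, with 4 of each group, averaged 1.27 ± 0.43 (SD, n = 8). Slide 2 was higher by 0.67 (interval 0.16 to 1.19), with an adjusted p of 0.195 in limma. Probe 2 was higher by 0.75 on slide 2, with an adjusted p of 0.169. Slide differences were common on this array set: 17.1% of all tested probes differed between slides at an unadjusted p under 0.05, and 0% past the adjusted threshold. Each slide held equal numbers of both groups, so a slide block cannot move the group difference of NR3C2, and its SE was 0.22 with the block against 0.28 without. The labels do not say how fetuses were placed on slides, so a difference between slides and a difference between the fetuses on them cannot be told apart.

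HSD11B1, which regenerates cortisol, had a higher mean after cortisol, with 1 fetus contributing much of the difference. Probe 1 read 0.55, -0.44, 0.27, 0.54, 0.28 and 0.10 on control arrays 1 to 6. On cortisol arrays 1 to 6 it read 0.28, 0.28, 2.00, 0.64, 0.50 and 0.41. All 6 cortisol arrays lay above the control median of 0.28, replicates 1 and 2 only just, and 2 lay above every control, and the groups overlapped. Replicate 3 of the cortisol group was far above the rest, and replicate 2 of the control group was the lowest array.

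Means of HSD11B1 were 0.22 ± 0.36 (SD, n = 6) and 0.68 ± 0.66 (SD, n = 6), which differ by 0.47 in log2 units (SE 0.28, interval -0.14 to 1.07), an unadjusted p of 0.121 and an adjusted p of 0.773 in limma. The linear fold was 1.38, with an interval of 0.91 to 2.10. Without cortisol replicate 3 the log2 fold change was 0.20. The difference was positive in each set of arrays that shared a slide and a row, at 0.22 in the set from slide 1 and 0.91 and 0.27 in the sets from slide 2, with 2 arrays of each group in a set. The set with 0.91 holds cortisol replicate 3.

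The dimmer HSD11B1 probe gave the same picture. Probe 2 read -1.67, -2.70, -1.94, -1.64, -1.67 and -2.06 on control arrays 1 to 6. Its cortisol arrays 1 to 6 were at -2.03, -1.63, -0.27, -1.64, -1.57 and -1.75. Cortisol replicate 3 was again the highest array and control replicate 2 again the lowest, while 5 of 6 cortisol arrays lay above the control median and 3 above every control. The log2 fold change was 0.46 (interval -0.13 to 1.06), with an adjusted p of 0.773 in limma. Over the 12 arrays the HSD11B1 probes correlated at a Pearson r of 0.974, and at 0.920 without cortisol replicate 3. The high value of that fetus was therefore read by both probes, which lie 122 bases apart.

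HSD11B2, the enzyme that inactivates cortisol, gave a signal close to the background. Probe 1 had spot intensities of 8.34 to 51.2 units after background subtraction, beside a local background of 15 to 26 units. The scanner software called it well above background on 6 of 6 controls and on 5 of 6 cortisol arrays, and probe 2 on 6 and 4. Cortisol replicate 5 was dim for both probes and cortisol replicate 2 for probe 2.

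On control arrays 1 to 6, HSD11B2 probe 1 read -3.58, -3.52, -4.17, -4.04, -3.94 and -3.34. The readings on cortisol arrays 1 to 6 were -3.13, -3.60, -4.25, -3.46, -4.93 and -4.37. The cortisol arrays were spread to both sides of the controls, with 1 above every control, 3 below every control and 2 within their range. The means were -3.77 ± 0.33 (SD, n = 6) and -3.95 ± 0.67 (SD, n = 6), or -0.19 apart (interval -0.79 to 0.42), with an adjusted p of 0.907 in limma. Probe 2 gave -0.26 (interval -0.82 to 0.30) with an adjusted p of 0.846.

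Leaving out cortisol replicate 5, whose signal was not well above background, brought the HSD11B2 difference to 0.0053. In the slide 1 set and the 2 sets from slide 2 it was 0.19, 0.25 and -1.01, so the direction was not shared. Although they differ by 1 base in position, the HSD11B2 probes correlated at a Pearson r of only 0.740, and their difference had an SD of 0.36. That disagreement is as large as the spread of the control arrays for probe 1, so differences of this size in HSD11B2 were not resolved at its low signal.

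**Figure D2:**
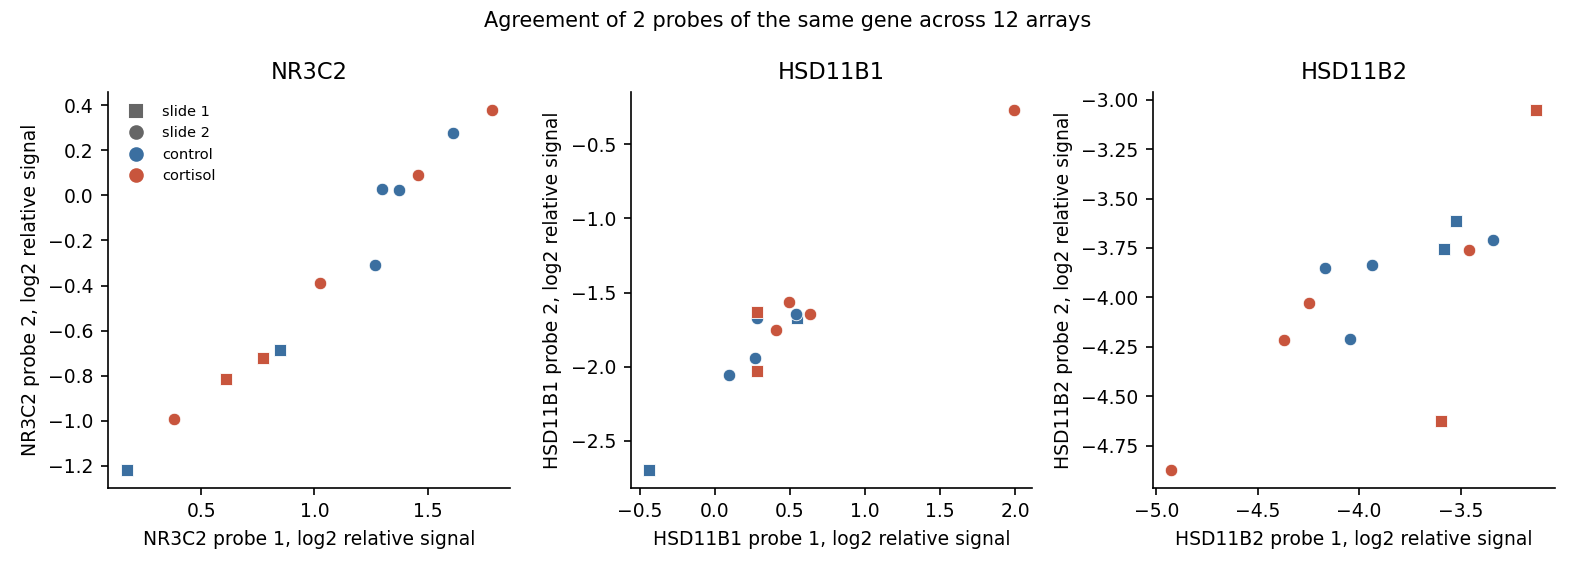
Probe 2 (vertical axis) against probe 1 (horizontal axis) of NR3C2, HSD11B1 and HSD11B2, in log2 relative signal, with 1 point for each of the 12 arrays. The points of NR3C2 and HSD11B1 lie close to a line (r 0.987 and 0.974), with 1 cortisol array far out for HSD11B1, and those of HSD11B2 scatter (r 0.740).

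Ratios within an array remove the array's own scaling. Subtracting one log2 signal from another gives a number without absolute meaning, because the probes bind differently, but its difference between groups can be tested. For the receptors, NR3C2 minus NR3C1 was -1.14, -0.74, 0.19, -0.18, -0.15 and 0.42 on control arrays 1 to 6. On cortisol arrays 1 to 6 it was -0.72, -0.46, -1.54, 0.09, -0.39 and 0.28. The groups overlapped, and the lowest value was that of cortisol replicate 3, which had a low NR3C2 signal and the highest NR3C1 signal. The mean was -0.27 ± 0.58 (SD) in controls and -0.46 ± 0.65 (SD) after cortisol, a difference of -0.19 with a two-sided exact permutation p of 0.602 over arrays. Without cortisol replicate 3 the difference was 0.03.

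The enzyme ratio had a higher mean after cortisol and did not pass the test. HSD11B1 minus HSD11B2 was 4.13, 3.08, 4.44, 4.58, 4.22 and 3.44 on control arrays 1 to 6. The cortisol arrays 1 to 6 gave 3.41, 3.87, 6.24, 4.10, 5.42 and 4.78. Of the 6 cortisol arrays 3 lay above every control and 3 below the control median of 4.17, so the groups overlapped. The value of cortisol replicate 5, the second highest, rests on an HSD11B2 signal not well above background and has no exact place in this order. The means were 3.98 ± 0.59 (SD) and 4.64 ± 1.06 (SD), a difference of 0.66 with a two-sided exact permutation p of 0.232, and 0.463 after adjustment over the 2 ratios. The difference was 0.33 without cortisol replicate 3 and 0.50 without cortisol replicate 5. It lay almost wholly on 1 slide, at 0.97 on slide 2 and 0.03 on slide 1, and a test of that contrast between slides was not run. The other 3 combinations of enzyme probes gave differences of 0.65 to 0.73.

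**Figure D3:**
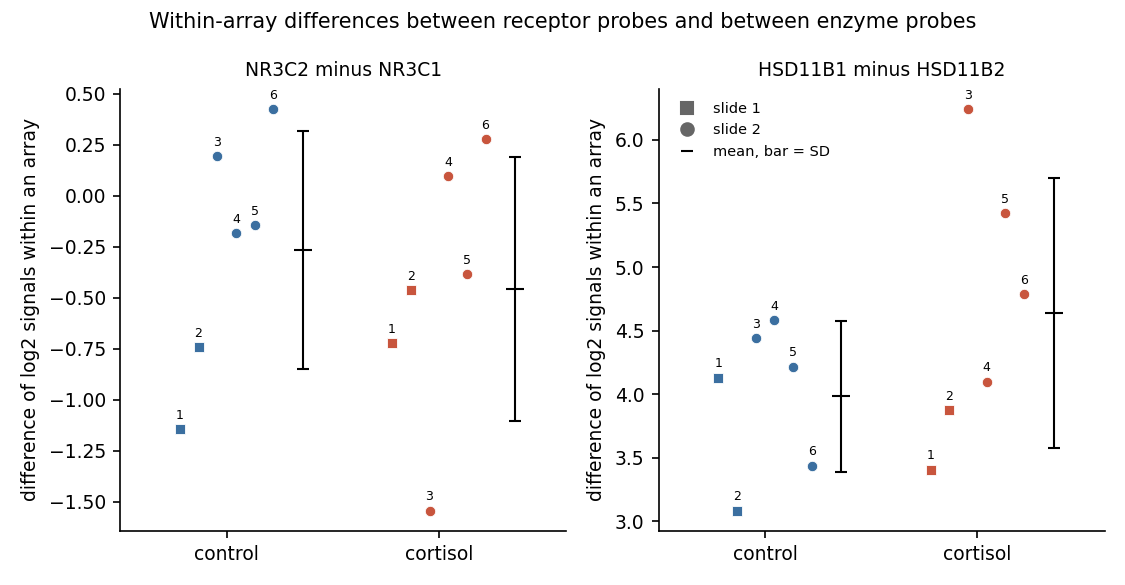
NR3C2 minus NR3C1 (left) and HSD11B1 minus HSD11B2 (right), as the difference of log2 signals within each array, for 6 control (blue) and 6 cortisol (red) arrays, with squares for slide 1, circles for slide 2 and black marks for the mean and SD. Cortisol replicate 3 has the lowest receptor value (-1.54) and the highest enzyme value (6.24).

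Across the 12 fetuses the members showed little common variation. Of 6 pairs, 0 had an adjusted permutation p under 0.05. The closest pair was NR3C1 with HSD11B1, with a Pearson r of 0.56 (permutation p = 0.0779, adjusted over 6 pairs 0.468) and a Spearman rho of 0.25 (permutation p = 0.432, adjusted 0.850). This relation rested on cortisol replicate 3: r was -0.27 without the 2 arrays farthest from the NR3C1 median, cortisol replicates 2 and 3, and -0.19 without replicate 3 alone. Within the groups r was -0.41 in controls and 0.83 after cortisol, and on slide 2, which held 8 arrays including cortisol replicate 3, it was 0.91. Slide 1 held too few arrays for a value. NR3C2 with HSD11B1 had an r of -0.34, which became 0.32 without control replicate 1 and cortisol replicate 3. The remaining 4 pairs had r between -0.35 and -0.15. On slide 2 alone NR3C2 had r of -0.86 with HSD11B1, -0.74 with NR3C1 and 0.38 with HSD11B2. Over both slides without cortisol replicate 3 these were 0.06, 0.09 and -0.28.

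Each member was also set beside 592 named and measured genes, and the 3 with the highest Pearson r over the 12 arrays are given as a description. NR3C1 was closest to RPS26, a ribosomal protein (0.887), CD86, a co-stimulatory protein of antigen-presenting cells (0.796), and YBX1, a nucleic-acid-binding protein (0.789). For HSD11B1 they were EEF1A1, a translation elongation factor (0.871), the chemokine CXCL8 (0.857) and CITED2, a transcriptional coregulator (0.820). Without cortisol replicate 3 the likeness of EEF1A1 fell to 0.601 and that of CXCL8 to 0.191, while that of CITED2 was 0.914. The NR3C1 genes RPS26, CD86 and YBX1 fell to 0.741, 0.681 and 0.626 without that array. HSD11B2 was closest to the ubiquitin-conjugating enzyme UBE2D2 (0.865), the zinc transporter SLC39A3 (0.847) and the TATA-binding protein TBP (0.812). Without cortisol replicate 3 these were at 0.859, 0.841 and 0.823.

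For NR3C2 the 3 closest genes were NOS3, the endothelial nitric oxide synthase (0.866), PECAM1, an adhesion protein between endothelial cells (0.856), and GNG11, a G-protein subunit (0.844), and without cortisol replicate 3 they were at 0.856, 0.829 and 0.814. NOS3 and PECAM1 are among 12 genes listed as endothelial markers, of which 7 were measured. NOS3 was lowest on cortisol replicate 3, where it read -4.26, and highest on cortisol replicate 6, where it read -1.66. PECAM1 ran from 2.62 on cortisol replicate 3 to 3.52 on control replicate 6. The arrays at these ends are also among the low and high arrays of NR3C2.

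As a description, the likeness was followed over the whole endothelial list, a step added after the nearest genes were known. The summed signal of the 7 measured markers ran from 2.95 to 3.71 on control arrays and from 2.91 to 3.70 on cortisol arrays. NR3C2 had a Pearson r of 0.875 with it over the 12 arrays, 0.798 within the control group, 0.940 within the cortisol group and 0.844 on slide 2. The sum is no independent reading, since PECAM1 made up 76.3% to 87.5% of it and, like NOS3, had already been picked as one of the nearest genes. Without PECAM1 the sum of the other 6 markers had an r of 0.55 with NR3C2. Without PECAM1 and NOS3 the r was 0.38 for 5 markers, and 0.14 on slide 2 alone. By rank the fall was smaller, with a Spearman rho of 0.91 for the 7 markers, 0.71 for the 6 and 0.63 for the 5.

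Taken singly, the endothelial genes ranged widely. NOS3, PECAM1, TEK, TIE1 and KDR had r of 0.866, 0.856, 0.692, 0.675 and 0.476 with it. FLT1, a receptor for vascular growth factors, was at 0.01 and ROBO4, an endothelial guidance receptor, at -0.04. The marker sum was lower on slide 1, at 3.06 ± 0.10 (SD, n = 4), than on slide 2, at 3.40 ± 0.31 (SD, n = 8), in the direction of NR3C2. In bulk RNA, fewer cells of a type and less RNA per cell cannot be told apart. The part of endothelial RNA in the NR3C2 signal was not tested.

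**Figure D4:**
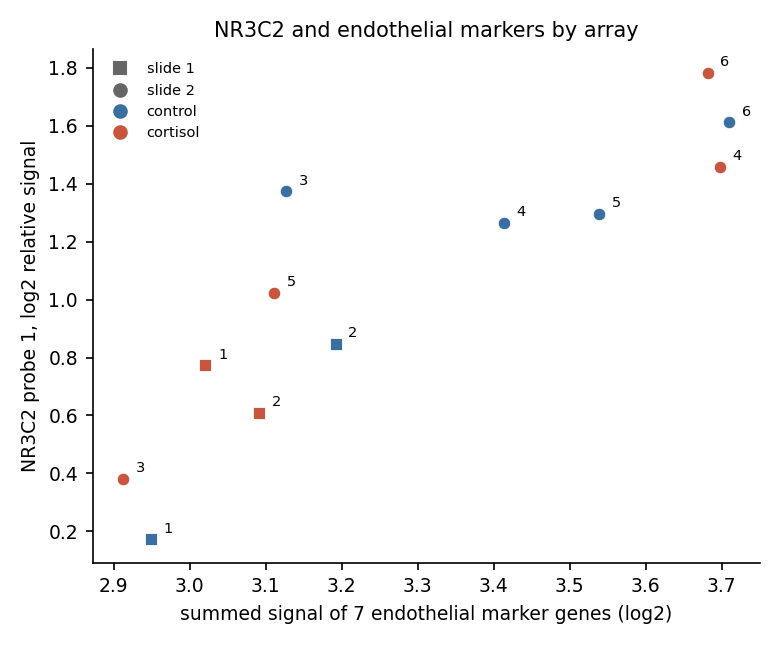
NR3C2 probe 1 in log2 relative signal (vertical axis) against the log2 summed signal of 7 endothelial marker genes (horizontal axis, mostly PECAM1), with 1 point per array, blue for control, red for cortisol, squares for slide 1 and circles for slide 2. The points rise together (r 0.875), with both groups along the whole range.

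Between the 4 members and 9 lists 36 relations were computed, and adjusted p-values are over these 36. The 4 measured leukocyte markers had a summed signal with r of 0.63 to HSD11B1 and -0.61 to NR3C2, each with an adjusted permutation p of 0.215 over 12 arrays. Their sum, of which TYROBP made up a median of 67.3%, was 0.40 to 1.09 on control arrays and 0.63 to 1.02 on cortisol arrays, and 1.02 on cortisol replicate 3, where HSD11B1 was highest. Between groups the leukocyte genes had a median log2 fold change of 0.43: FCER1G was at 0.59 and ITGB2 at 0.62, each with 4 cortisol arrays above every control and an adjusted p of 0.692 in limma, CD14 at 0.27 and TYROBP at -0.20. With normexp background correction these 4 genes were lower or nearly unchanged, in that order at 0.27, 0.20, 0.0056 and -0.18. Of the 5 adipocyte markers, which belong to a tissue known for HSD11B1, the sum was 2.37 on that array, within the cortisol range of 1.86 to 2.52 and just below the control range of 2.40 to 4.66. On 5 of 6 cortisol arrays the adipocyte sum lay below every control. Control replicate 3 alone set the upper end, the next control being at 2.61. LPL made up a median of 61.1% of the adipocyte sum, so the sum mostly follows LPL. LPL was below every control on all 6 cortisol arrays, and 0.41% of tested probes had groups that did not overlap. The log2 fold change was -1.08 for LPL and 1.65 for FABP4, both with an adjusted p of 0.692 in limma. Without control replicate 3 that of LPL was -0.62. FABP4 was above background on 2 controls and 4 cortisol arrays, and was at 0.35 with normexp correction. Both genes were singled out after their values were seen. Of the rest, PPARG was at 0.38, PLIN1 at -0.13 and LEP at -0.04. The 9 fibroblast and matrix markers summed to 7.46 on cortisol replicate 3, within the control range of 6.67 to 7.51. The upper end of that range was control replicate 3 alone, the next control being at 7.09. Cortisol arrays ran from 6.70 to 7.81 in this sum, with 2 above every control. VIM made up a median of 56.5% of it. For HSD11B2, the single measured kidney and distal epithelium marker, AQP2, had an r of 0.62, with an adjusted permutation p of 0.215. Skeletal-muscle (5 measured), liver (6) and erythroid (2) sums had adjusted permutation p of at least 0.693 for Pearson r with every member, and 0.543 for Spearman rho. The muscle sum had r of 0.37, -0.12, 0.28 and -0.10 with NR3C1, NR3C2, HSD11B1 and HSD11B2. Without its 2 farthest arrays, control replicate 3 and cortisol replicate 5, these were 0.25, 0.23, 0.62 and -0.74. The 6 liver markers all had lower means after cortisol, with sums of -0.20 to 7.21 in controls and -0.26 to 1.86 after cortisol. Control replicates 1 and 4 set the upper end, at 5.85 and 7.21, with the other controls at -0.20 to 2.71. The part of these markers in the members' values was not tested.

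The pathway around the receptors was sparsely covered: 29 of 147 listed genes were measured. Of these, 14 had higher and 15 lower means after cortisol, 0 passed an adjusted p of 0.05 in limma, and 4 had an unadjusted p under 0.05. Over all tested probes 2.14% were higher and 4.68% lower at that unadjusted level, and the median log2 fold change was -0.02.

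Upstream of the receptors, chaperones and immunophilins were represented by 2 of 20 genes, with a median log2 fold change of -0.05. HSP90AA1, the heat-shock protein that holds the unliganded receptor, was at -0.04, and its co-chaperone DNAJA1 at -0.05. Of 29 coregulators 5 were measured, 1 higher and 4 lower, with a median of -0.10. FOS, which pairs with JUN in the AP-1 factor that the glucocorticoid receptor restrains, was at 1.12 (interval -0.30 to 2.54). JUN was at -0.14, the metabolic coactivator PPARGC1A at -0.09 and the methyltransferase PRMT1 at -0.11.

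Steroid-making and steroid-converting enzymes other than HSD11B1 and HSD11B2 were measured for 5 of 29 genes, 2 higher and 3 lower, with a median of -0.08. AKR1C3, an aldo-keto reductase that reduces steroids and prostaglandins, had control values of 1.20 to 2.25 with a median of 1.50 and cortisol values of -0.24 to 1.45 with a median of 0.79. All 6 cortisol arrays lay below the control median and 4 below every control, though the groups overlapped. The log2 fold change was -0.89 (interval -1.52 to -0.25), with an adjusted p of 0.692 in limma. Its lowest array was cortisol replicate 3, and without that array the log2 fold change was -0.70. The AKR1C family has close relatives in 1 cluster, and the probe was named from the array's description of a bovine-like transcript, so the exact member is uncertain.

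PGD, a cytosolic enzyme of the pentose phosphate route that yields NADPH, had a log2 fold change of 0.04. CYP17A1 and CYP21A2, which serve cortisol synthesis in the adrenal, were at -0.31 and -0.08. STAR, CYP11A1, CYP11B1 and CYP19A1 were on the array but not above background on enough arrays.

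Transport and other receptors gave 6 measured genes of 13, 2 higher and 4 lower (1 and 5 with normexp background correction), with a median of -0.17. ALB, a plasma carrier of cortisol and also a liver marker, ran from -5.27 to 2.57 in controls and from -6.29 to -2.18 after cortisol. Its means differed by -2.72 (interval -5.49 to 0.04), and 5 control and 3 cortisol arrays were above background. The oestrogen receptor ESR1 was at -0.12 and the progesterone receptor PGR at -0.76. PGR was well above background on 5 controls and 3 cortisol arrays, and its value was -0.24 without cortisol replicate 3, -0.16 with normexp correction and -0.20 with the deposited values. The angiotensin receptor AGTR1 was at 0.16 and POMC, the precursor of corticotropin, at -0.23.

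Downstream, the glucocorticoid target list had 8 measured genes of 40, 7 with higher and 1 with lower means and a median log2 fold change of 0.16 beside -0.02 for all probes. With normexp background correction 5 of the 8 were higher, and with the deposited values 6. FBXO32, the muscle ubiquitin ligase atrogin-1, read -0.71, 0.30, 0.56, -0.13, -1.12 and -1.60 on control arrays 1 to 6. On cortisol arrays 1 to 6 it read 2.66, -0.91, 2.61, -0.86, 2.82 and 0.17. Cortisol replicates 1, 3 and 5 were above every control, and the other 3 lay within the control range. The log2 fold change was 1.53 (interval 0.01 to 3.05), with an adjusted p of 0.720 in limma.

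TXNIP, which binds thioredoxin and limits glucose uptake, ran from 5.11 to 5.63 with a median of 5.47 in controls and from 4.78 to 7.34 with a median of 6.02 after cortisol. Of the cortisol arrays 5 lay above every control and 1, replicate 2, below every control. Its log2 fold change was 0.72 (interval -0.01 to 1.44), adjusted p 0.720 in limma, and 0.47 without cortisol replicate 3. The transcription factor CEBPB was at 0.89 (interval 0.03 to 1.74), with 3 cortisol arrays above every control and its highest value, 0.03, on cortisol replicate 3. With normexp correction CEBPB was at 0.52. On slide 1 alone TXNIP was at 0.084 and CEBPB at 0.085, against 1.03 and 1.29 on slide 2 alone. FBXO32 was at 1.08 on slide 1 alone. NFKBIA, the inhibitor of NF-kB, was at 0.17, HIF3A, a hypoxia-inducible factor subunit, at 0.0048 and CDKN1C, a cell cycle inhibitor, at -0.36, or -0.13 without cortisol replicate 1. The sign for HIF3A turned with normexp correction (-0.04) and the deposited values (-0.0047).

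The summed signal of the 8 glucocorticoid targets was highest on cortisol replicate 3, at 7.55, against 5.64 to 6.21 on control arrays and down to 5.39 on cortisol replicate 2. TXNIP is the brightest probe of the list and weighs most in that sum. The summed signal had r of 0.72 with NR3C1 and 0.72 with HSD11B1, each with an adjusted permutation p of 0.159 over 36 relations. Without cortisol replicate 3 these r were 0.44 and 0.33. Of the targets named above, TXNIP and CEBPB were highest on the fetus with the highest HSD11B1 and NR3C1 signals. FBXO32 and HIF3A were highest on cortisol replicate 5, and NFKBIA and CDKN1C on control replicate 3.

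Mineralocorticoid targets were measured for 3 of 16 genes, 2 higher and 1 lower, with a median of 0.16. EDN1, the endothelin precursor, lay above the control median on all 6 cortisol arrays and above every control on 3. It ran from -2.75 to -1.72 with a median of -2.17 in controls and from -2.09 to -1.18 with a median of -1.75 after cortisol. The means differed by 0.49 (interval 0.03 to 0.95), with an adjusted p of 0.710 in limma, and by 0.19 with normexp correction. The sodium pump subunit ATP1B1 was at -0.25. SCNN1A, SCNN1B and SCNN1G, the subunits of the epithelial sodium channel, were on the array but did not reach the filter.

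**Figure D5:**
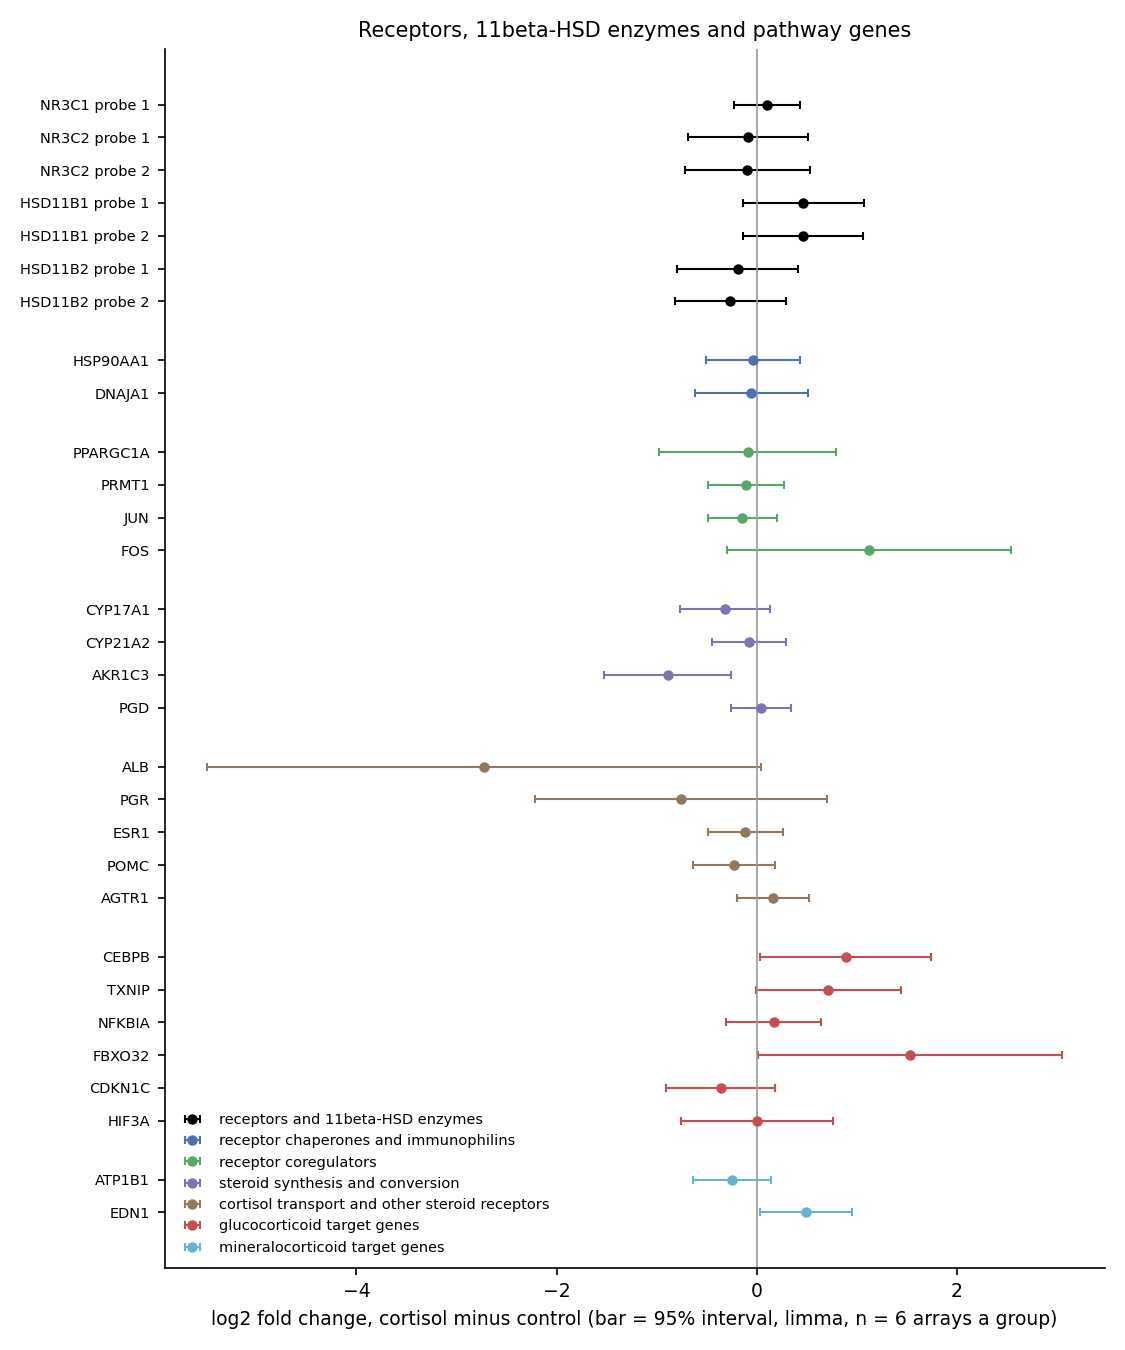
Log2 fold change (cortisol minus control, horizontal axis) with 95% limma intervals for the 7 receptor and enzyme probes and the pathway genes named in the text, grouped by list, from 6 arrays a group. All 7 black intervals cross 0, and among the pathway genes those of AKR1C3, CEBPB, FBXO32 and EDN1 do not, although 0 of them passed after adjustment.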

How the data were processed

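The members and the gene lists were chosen with earlier results of these data known. Labelling with Cy3 started from 500 ng of total RNA, per the labels. Agilent Feature Extraction 10.1.1.1 was used by the authors, per the submitters' processing notes. Its output gives, per the file headers, an intensity for each spot (processed, mean and background) and other values, namely 0 or 1 flags. The deposited series table holds log2 values that rank each array's probes like the median signal minus background (lowest Spearman 1), with the normalization tool not given in the sources used here.

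Of 15744 spots, 15208 were not controls and made up 15008 probes. Outlier spots were left out, spots of 1 probe averaged, and each array's 75th percentile of log2 processed intensity subtracted. The 10730 probes well above background on at least 6 arrays were fitted with limma 3.58.1 in R 4.3.3 (lmFit, eBayes, two-sided, Benjamini-Hochberg over all probes, threshold 0.05). The median SE was 0.21, and 12 arrays limit the precision. Names came from the array annotation and RefSeq's sheep gene table: 704 probes by transcript, 125 by gene number, 484 by symbol, 20 by synonym, 36 from the array's description and 1 from its own name. The remaining probes are unnamed here, and a gene is represented by its brightest probe. Nothing in the labels ties equal replicate numbers to a shared origin.

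All members were described, all measured genes of a pathway list up to 6, otherwise the first 6 in the list's order, and the 3 genes most like each member. Some listed genes are counted but not reported here. Ratios were compared by exact permutation over 924 arrangements and correlations by 100000 permutations. Alternatives covered background correction, scaling, filters, slide and row blocks, the replicate block, array weights and left-out arrays; those within a slide and row, for pathway genes and for correlations were chosen after seeing the data. The fit was tested on simulated data. Other steps used Python 3.11.15 with scipy 1.17.1, numpy 2.4.6, matplotlib 3.10.9 and pandas 2.3.3.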

Additional observations from a re-analysis of the deposited data

Results flagged for a closer look

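In 4 of 72 groups of 6 arrays, taken over the member probes, the ratios and the named pathway genes, 1 array lay far outside the other 5 by Dixon's criterion. Chance alone marks about 1 in 20 such groups, so this number is near what chance gives. HSD11B1 probe 1 was at 2.00 on cortisol replicate 3, with the other cortisol arrays at 0.28 to 0.64. HSD11B1 probe 2 was at -0.27 on the same array, with the others at -2.03 to -1.57, and these 2 values concern the same transcript in the same fetus. ESR1 was at 3.55 on control replicate 1, with the other controls at 2.89 to 3.08. CDKN1C was at 1.76 on cortisol replicate 1, with the other cortisol arrays at 2.97 to 3.42.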

How the results depend on the processing

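HSD11B1 was higher after cortisol under all 29 alternatives tried, at log2 fold changes of 0.20 to 0.91, and the enzyme ratio under all 23, at 0.03 to 0.97, although 5 of each equal the main value exactly, blocks among them by construction; neither passed its threshold under any of them. On slide 1 alone the signs of NR3C1 (-0.17), NR3C2 (0.18), HSD11B2 (0.19) and the receptor ratio (0.35) turned, and 1 probe of the array passed the adjusted threshold. Without both replicates numbered 3, NR3C1 was -0.027, NR3C2 0.092 and the receptor ratio 0.12. NR3C2 was 0.077 with array weights, and HSD11B2 was 0.25 within row 1 of slide 2. Single arrays left out gave 0.0097 to 0.18 for NR3C1, -0.27 to 0.036 for NR3C2, 0.20 to 0.55 for HSD11B1, -0.35 to 0.0053 for HSD11B2, -0.37 to 0.026 for the receptor ratio and 0.33 to 0.90 for the enzyme ratio. Signs also turned for HSP90AA1 without both replicates 3 (0.014); on slide 1 alone for DNAJA1 (0.23), NFKBIA (-0.38), HIF3A (-0.70) and ATP1B1 (0.0063); on slide 2 alone for PPARGC1A (0.32), JUN (0.055), PGD (-0.046) and ESR1 (0.075); with normexp for HIF3A (-0.038); and with deposited values for HIF3A (-0.0047). Single arrays left out turned HSP90AA1 (-0.17 to 0.077), DNAJA1 (-0.18 to 0.12), PPARGC1A (-0.39 to 0.10), CYP21A2 (-0.16 to 0.014), PGD (-0.041 to 0.10) and HIF3A (-0.20 to 0.21). The causes were not tested. Among unadjusted calls, 68.6% were lower, against 75.6%, 60.9%, 63.8% and 60.8% with normexp, quantile, median scaling and the deposited values. Same-numbered arrays deviated together with correlations of -0.11 to 0.25. They also share a slide and row, so these values cannot tell a pairing from shared placement. The numbers were not taken as pairs, because the labels do not tie them. The groups are balanced over the numbers, so the replicate block cannot move the differences, and 0 probes passed with it. The differences stayed at 0.10, -0.09, 0.47 and -0.19 for NR3C1, NR3C2, HSD11B1 and HSD11B2, and at -0.19 and 0.66 for the ratios. Array weights were not run for the ratios, and no HSD11B2 value exists where all 12 arrays had to be above background. HSD11B2 had signals near background.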
